A study of Mus musculus with 8 samples.

Results

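Fragments of transfer RNA that were bound to Argonaute were examined in the brains of 5XFADtg mice. The members were all sequences of the table that had no mature miRNA name and that the annotation placed in the tRNA class. They numbered 2504 of the 47204 distinct sequences, and 5 further tRNA sequences that also carried a miRNA name were left out. Of the members, 2376 came from cytosolic tRNAs of 20 amino acids and 45 anticodons, and 128 came from 14 mitochondrial tRNAs.

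The libraries were made from cortex and hippocampus combined of female mice aged 6 or 8 months on a mixed C57BL/6J/SJL background. One group of 4 mice was 5XFADtg Rubicon+/- and the other group of 4 was 5XFADtg Rubicon-/-, so that every mouse carried the 5XFAD transgenes and no library came from a mouse without them. 5XFAD transgenes encode mutant human amyloid precursor protein and presenilin under a neuronal promoter, and Rubicon is a gene of autophagy and of related endocytic pathways. None of the sequences carried the name of a Rubcn transcript or lay inside 1 of the 9 Rubcn transcripts of GENCODE, so the genotype labels could not be checked here.

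A mature tRNA folds into an acceptor stem, a D arm, an anticodon arm and a T arm. Its 3′ end carries the letters CCA, which in mammals are added after transcription and are not written in the gene. Nucleases cut tRNAs into shorter pieces, and some of these pieces are loaded into the RNA-induced silencing complex (RISC), where an Argonaute protein holds them as it holds a miRNA. A loaded RNA finds targets mainly through its seed, here the 6 bases at positions 2 to 7. Each seed in the table had a viability score, which is the mean viability in percent of 3 mouse cell lines after transfection of a short RNA with that seed. A low score marks a seed that is toxic through Death Induced by Survival gene Elimination (DISE), and the score was looked up for each seed and was not measured in these brains.

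The 10 most abundant tRNA fragments are given because they held 19.2% of all tRNA fragment reads. They are written 5′ to 3′ as DNA letters with the seed in capitals, and the name is the amino acid and the anticodon.
AsnGTT, 23 nt: tAACCGAaaggttggtggttcga
AsnGTT, 22 nt: tAACCGAaaggttggtggttcg
AlaTGC, 18 nt: tCCCCGGcacctccacca
AlaCGC, 18 nt: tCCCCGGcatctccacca
HisGTG, 22 nt: tCGAATCcgagtcacggcacca
LeuAAG, 18 nt: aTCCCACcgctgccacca
LeuAAG with an added T, 19 nt: aTCCCACcgctgccaccat
LeuAAG with an added A, 19 nt: aTCCCACcgctgccaccaa
SerTGA, 18 nt: aCCCTGCtcgctgcgcca
GlyCCC, 18 nt: tTCCCGGgcggcgcacca

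The AsnGTT pieces end inside the T arm, and the other 8 sequences hold the CCA end. The LeuAAG and AlaTGC sequences were highest in Rubicon-/- replicate 4. Without it the mean CPM (reads per 1000000 reads of a library) of the 18-nt forms was 38.5 in place of 98.9 for LeuAAG and 73.3 in place of 126 for AlaTGC. The LeuAAG forms with an added T and an added A averaged 36.2 in place of 70.4 CPM and 27.7 in place of 67.4 CPM without it. The AsnGTT gene is named on chromosome 3, the AlaTGC and AlaCGC genes on chromosome 13, and the SerTGA gene on chromosome 10. The LeuAAG genes are on chromosomes 11, 13 and 14, the HisGTG genes on chromosomes 2, 3 and 4, and the GlyCCC genes on chromosomes 6 and 17. The table gives no start or end for nuclear tRNA genes, and 1297 members named more than 1 gene.

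The depth of the libraries ran from 509839 to 19878054 reads, and the 2 deepest libraries, Rubicon-/- replicates 1 and 2, held 72.6% of all reads. miRNAs took 94.7% to 97.1% of each library. The neuronal miRNAs miR-124-3p, miR-9-5p and miR-128-3p together held 14.5% to 18.9% of reads in Rubicon+/- and 14.6% to 24.7% in Rubicon-/- brains. All other fixed markers were detected too, miR-486a-5p only under a name that it shares with miR-486b-5p. A list of 6 miRNAs of epithelium and sensory cells summed to between 2229 and 7696 CPM in Rubicon+/- and to between 187 and 783 CPM in Rubicon-/- libraries. None of the 6 overlapped between the genotypes, while every other fixed marker did. 5 of the 6 were lower in Rubicon-/- at an adjusted p under 0.05 in limma, the exception being miR-183-5p with a log2 difference of -3.09 and an adjusted p of 0.0556. These 5 were all that passed among 492 annotation groups (each miRNA name, tRNA family or other class), or 1.02%. The part of these cells in the values below was not tested.

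tRNA fragments were a small part of the RISC, between 0.379% and 1.09% of the reads of a library. In Rubicon+/- replicates 1 to 4 their share was 0.471%, 0.515%, 0.396% and 0.486%. In Rubicon-/- replicates 1 to 4 it was 0.404%, 0.379%, 0.701% and 1.09%. The means were 0.467% ± 0.0507 (SD, n = 4) and 0.643% ± 0.332 (SD, n = 4), and the genotypes overlapped, with the lowest and the highest library both in the Rubicon-/- group. The widest 95% Wilson interval for a single library was that of Rubicon-/- replicate 4, from 1.07% to 1.11%. Without Rubicon-/- replicate 4 the difference of the means fell from 0.176 to 0.0276 percentage points, and without Rubicon-/- replicates 1 and 2 it was 0.429. No p is given for a share summed over the chosen members. In bulk tissue, fewer cells of a type and less RNA per cell cannot be told apart.

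Among the reads that came from neither a mature miRNA nor a miRNA hairpin, the share of tRNA fragments did not overlap between the genotypes. tRNA fragments made up 28.7%, 37.5%, 41.7% and 34.4% of such reads in Rubicon+/- replicates 1 to 4. In Rubicon-/- replicates 1 to 4 they made up 48.9%, 48.5%, 47.2% and 51.7%. All other RNAs in this denominator took 0.552% to 1.17% of a library in Rubicon+/- and 0.402% to 1.02% in Rubicon-/- mice, and these ranges overlapped. This ratio was chosen after its values were seen, and it has no test. The 2 deepest libraries are both Rubicon-/-, and without them the difference was 13.9 against 13.5 percentage points with all libraries.

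The fragments came unevenly from the amino acid families, and 6 of them held most reads. In CPM averaged over the 8 libraries, tRNA-Leu gave 836 ± 887 (SD, n = 8), tRNA-Ser 682 ± 364, tRNA-Ala 613 ± 569, tRNA-Asn 472 ± 117, tRNA-Gly 421 ± 129 and tRNA-Cys 327 ± 137. The order of neighbours in this list is within their spread, and without Rubicon-/- replicate 4 tRNA-Leu averaged 528 CPM. At the other end, tRNA-Trp gave 26.1 ± 12.8 CPM. tRNA-Leu stood at 504, 486, 377 and 578 CPM in Rubicon+/- replicates 1 to 4 and at 447, 395, 909 and 2992 CPM in Rubicon-/- replicates 1 to 4. Rubicon-/- replicate 4 was far above all others, replicate 3 was also above the Rubicon+/- range, and replicates 1 and 2 lay inside it. In that library tRNA-Leu was 27.5% of tRNA fragment reads and tRNA-Ala 17.6%, while in the other 7 tRNA-Leu was between 9.45% and 13.0%. A single LeuAAG end, the 18-nt sequence shown above with all of its added bases, stood at 1636 CPM there, against 120 to 397 CPM elsewhere. tRNA-Asn was steadier, with 389 to 514 CPM in Rubicon+/- and 294 to 637 CPM in Rubicon-/- libraries.

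Some families gave reads of a single anticodon, such as CysGCA and HisGTG, while tRNA-Leu was 66.1% LeuAAG and tRNA-Ala was 48.2% AlaTGC and 47.3% AlaCGC. AlaCGC was above AlaTGC in 7 of 8 libraries, and without Rubicon-/- replicate 4 the shares were 38.5% AlaTGC, 54.9% AlaCGC and 50.5% LeuAAG. The region kept also differed between families. CCA ends made up 92.6% of tRNA-Ala and 92.3% of tRNA-Cys reads. They made up 3.29% of tRNA-Asn, 7.89% of tRNA-Gln and 6.23% of tRNA-Glu reads. These are pooled means over the 8 libraries and carry no test.

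Over all members, 383 sequences ended exactly in CCA and gave 27.8% of tRNA fragment reads. Another 654 had 1 to 6 further bases after a CCA end and gave 28.4%. The remaining 1467 sequences lacked a CCA end and gave 43.8%. By library, CCA ends with or without added bases held 44.7% to 52.9% of tRNA fragment reads in Rubicon+/- mice. They held 53.3%, 45.5%, 59.8% and 70.8% in Rubicon-/- replicates 1 to 4.

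The CCA ends had preferred lengths. Counted without added bases, ends of 18 nt held 66.5% of the CCA reads, ends of 17 nt held 16.3% and ends of 22 nt held 10.7%. Read from the tRNA's fixed 3′ end, the 18-nt ends begin in the 3′ side of the T loop and the 22-nt ends in its 5′ side. The AlaTGC, LeuAAG, GlyCCC and SerTGA sequences above are of the former kind and the HisGTG sequence is of the latter. Fragments without a CCA end were longer and peaked at 23 nt with 27.8% of their reads.

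Added bases were common on ends of 17 to 19 nt and less common on shorter and longer ones. By pooled reads they were on 55.7%, 58.6% and 38.4% of ends of 17, 18 and 19 nt. They were on 0.331% of ends of 15 nt and 1.25% of ends of 16 nt. On ends of 20, 21 and 22 nt they stood at 11.2%, 13.2% and 8.80%. Averaged over libraries, the share of reads with added bases was 59.7% ± 3.91 (SD, n = 8) for 18-nt ends and 8.56% ± 2.94 for 22-nt ends. The difference of 51.2 percentage points had the same direction in 8 of 8 libraries (exact sign-flip permutation test, two-sided, p = 0.0078, the smallest that 8 libraries allow, adjusted p = 0.0104 over 4 contrasts chosen after seeing the data). Among ends of at least 10 CPM, the 32 of 17 or 18 nt had added bases on 23.1% to 83.0% of reads, and the 6 of 22 nt on 1.90% to 22.1%, so the groups did not overlap. RNA of 19 to 35 nt was cut from the gel for these libraries, per the labels. Sequences shorter than 19 nt held 29.1% of tRNA fragment reads and 0.322% of miRNA reads. The part of the gel cut in the share of added bases was not tested.

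The added bases were nearly all T or A. Of the reads with added bases, 51.3% had 1, 30.3% had 2 and 13.6% had 3. T was 54.4% of the added letters, A 41.8%, G 2.78% and C 0.967%. T stands for U in the RNA. Among single added bases, T made up 58.2% ± 6.48 (SD, n = 8) and A 38.8% ± 6.11, and T was ahead in 7 of 8 libraries (exact sign-flip permutation test, two-sided, p = 0.0156, adjusted p = 0.0156). The exception was Rubicon-/- replicate 4, with 45.6% T and 50.8% A. Since CCA is itself added to the tRNA, letters after it do not come from the gene, and whether they arose in the tissue or in library preparation was not tested.

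The fragments without a CCA end fell into 521 sets by their first 15 bases, and a few sets dominated. The AsnGTT set that begins in the anticodon loop held 408 CPM, which was 16.8% of such reads. The next 6 sets by CPM are shown because they are the leading internal and 5′ pieces.
GlnCTG, 209 CPM over the set: aATCCAGcgatccgagttcaaat
IleAAT, 99.8 CPM over the set: tAACGCCaaggtcgcgggttcgat
GluCTC, 65.3 CPM over the set: tCCCTGGtggtctagtggttag
GluTTC, 55.1 CPM over the set: tCCCACAtggtctagcggttag
LeuCAG, 50.2 CPM over the set: gTCAGGAtggccgagtgg
HisGTG, 49.6 CPM over the set: tGGCCGCagcaacctcggttcg

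The GlnCTG and IleAAT sequences run from the anticodon arm into the T arm, as the AsnGTT sequence does. The GluCTC, GluTTC and LeuCAG sequences are 5′ pieces. The HisGTG sequence is again internal, and its seed had a viability score of 8.3. Letters of the T arm stood at the end of many of these reads. GTTC, GTTCG or GTTCGA was the 3′ end of 137 of the 1467 sequences and of 25.7% of their reads.

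The members held 514 seeds, and 10 of these gave 53.1% of the reads. In 227 of the 514 seeds, tRNA fragments made up more than 50% of all reads with that seed in the RISC, and these seeds held 89.4% of tRNA fragment reads. The median over the 514 seeds was 41.5%. Among seeds with at least 10 CPM in tRNA fragments, 15 had a score under 40, and these 15 held 864 CPM in tRNA fragments of 15968 CPM in all reads. Most of that total was the seed CGGAUC, with 14455.5 CPM in all reads, 14298.4 CPM in miRNAs and 18.7 CPM in tRNA fragments. In 11 of the 15 seeds, tRNA fragments made up more than 50% of the reads. The seed UCCCAC, mainly of tRNA-Leu, held 582 CPM in tRNA fragments and 23.9 CPM in miRNAs, of 651 CPM in all. The seed CCCCGG of tRNA-Ala held 559 CPM, and no miRNA read carried it. Without Rubicon-/- replicate 4 the tRNA fragments with these seeds averaged 301 and 376 CPM. Where miRNAs shared a seed, their part could be larger, as for the seed CCAGGA, which had 49.6 CPM in tRNA-Leu fragments and 86.3 CPM in miRNAs.

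In every library the viability score of tRNA fragments, weighted by reads, was higher on average than that of miRNAs, and the share of reads with a toxic seed was higher as well. The mean score was 60.5 ± 0.997 (SD, n = 8) for tRNA fragments and 56.4 ± 0.786 for miRNAs, and it was higher in 8 of 8 libraries. The share of reads with a score under 40 was 17.8% ± 2.26 for tRNA fragments and 12.5% ± 1.5 for miRNAs, again higher in 8 of 8 libraries. Both differences had p = 0.0078 and adjusted p = 0.0117 over 12 class contrasts (exact sign-flip permutation test over libraries, two-sided). When each distinct sequence detected in a library was counted once, the difference in the toxic share turned to -1.85 percentage points with an adjusted p of 0.0563 in the same exact test. Counted that way, the mean score was still higher but by 1.11 in place of 4.10, with an adjusted p of 0.0208 in the same exact test. Both differences therefore depend on the weight of abundant sequences.

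Against fragments of mRNA, tRNA fragments had a higher mean score by 8.45 and a smaller share under 40 by 13.2 percentage points, with the means at 52.1 and 31.0% for mRNA fragments. Both had the same direction in 8 of 8 libraries with an adjusted p of 0.0117 in the exact permutation test. Against rRNA fragments the mean score was higher by 4.48 in 7 of 8 libraries (adjusted p = 0.0208, exact permutation test). The share under 40 against rRNA fragments differed by 2.50 percentage points with an adjusted p of 0.131 in the exact permutation test. Without Rubicon-/- replicate 3 that difference was 3.48 with an adjusted p of 0.0208 in the same exact test. The mean length of tRNA fragments was 20.3 nt ± 0.421, against 21.7 nt ± 0.0417 for miRNAs, and it was shorter in 8 of 8 libraries (adjusted p = 0.0117, exact permutation test). G made up 23.4% ± 1.68 of the seed letters of tRNA fragments, 26.9% ± 0.660 of those of miRNAs and 32.5% ± 0.980 of those of mRNA fragments, with an adjusted p of 0.0117 for both differences in the exact permutation test. For rRNA fragments it was 22.7%, and tRNA fragments were higher by 0.726 percentage points in 5 of 8 libraries with an adjusted p of 0.445 in the exact permutation test. Mean length against mRNA fragments differed by 0.313 nt with an adjusted p of 0.281 in the exact permutation test.

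The toxic seeds came from few families. tRNA-Ser held 34.6% of the tRNA fragment reads with a score under 40 and tRNA-Cys held 18.3%, and tRNA-Val and tRNA-His followed with 8.94% and 7.14%. Within tRNA-Cys 57.6% of reads had a toxic seed, and the mean score ran from 28.2 to 33.1 over the libraries. Within tRNA-Ser the toxic share was 52.1%, and it ran from 32.5% to 79.0% over the libraries. tRNA-Ala was at the other end, with a mean score of 80.1 and 2.66% of reads under 40. tRNA-Asn and tRNA-Thr had 1.18% and 0.736% under 40. Without Rubicon-/- replicate 4, tRNA-Ser held 28.4% and tRNA-Cys 21.4% of the toxic reads, and 41.8% of tRNA-Ser reads were toxic. The leading toxic ends are shown with the total of each end in CPM, added bases included.
CysGCA, score 17.9, 172 CPM: tCCGGGTgccccctcca
SerTGA, score 20.7, 168 CPM: aCCCTGCtcgctgcgcca
SerAGA, score 25.1, 89.7 CPM: aTCCTGCcgactacgcca
ValCAC, score 9.3, 73.6 CPM: aCCGGGCggaaacacca

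The SerAGA value rests on Rubicon-/- replicate 4, which had 408 CPM against 22.9 to 88.5 CPM elsewhere. Without it this end averaged 44.3 CPM, below the ValCAC end at 65.7 CPM.

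The SerTGA end without added bases stood at 86.9, 68.8, 44.3 and 98.0 CPM in Rubicon+/- replicates 1 to 4 and at 49.6, 46.1, 121 and 263 CPM in Rubicon-/- replicates 1 to 4. The genotypes overlapped, with Rubicon-/- replicates 3 and 4 above the Rubicon+/- range and replicates 1 and 2 inside it.

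CCA ends were more often toxic than the other fragments. Their mean score was 58.4 ± 1.17 (SD, n = 8) and that of the others was 63.0 ± 1.15, and 23.2% ± 2.38 of their reads had a score under 40 against 11.7% ± 1.55. Both differences had the same direction in 8 of 8 libraries (exact sign-flip permutation test, two-sided, p = 0.0078, adjusted p = 0.0104).

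A shift of the 5′ end by 1 base could move a fragment between toxic and nontoxic seeds. There were 10 pairs of CCA ends of at least 10 CPM each that differed only by 1 base at the 5′ end. The shorter partner had the lower score in 6 pairs and the higher score in 4, and the median size of the change was 21.9. The pairs with the largest drop and rise are shown.
ValCAC, score 71.2, 135 CPM: aACCGGGcggaaacacca
ValCAC, score 9.3, 73.6 CPM: aCCGGGCggaaacacca
LeuAAG, score 65.9, 385 CPM: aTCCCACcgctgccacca
LeuAAG, score 19.3, 35.9 CPM: tCCCACCgctgccacca
AspGTC, score 53.1, 19.7 CPM: tTCCCCGacggggagcca
AspGTC, score 81.5, 38.8 CPM: tCCCCGAcggggagcca
The LeuAAG ends were highest in Rubicon-/- replicate 4, and without it they averaged 206 and 12.7 CPM. Without that library 8 pairs had both ends at 10 CPM or more, and the shorter partner was lower in 5 and higher in 3.
For CysGCA the change went through 3 ends, from a score of 86.8 at 19 nt and 14.0 CPM to 41.7 at 18 nt and 108 CPM and to 17.9 at 17 nt and 172 CPM. In the pairs shown the longer end was the more abundant for ValCAC and LeuAAG, and the shorter one for AspGTC. A further ValCAC end of 19 nt had 16.2 CPM and a score of 61.7.

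Among members averaging 1 CPM or more, the extremes of the score were also named by rule. The lowest were SerAGA fragments of 16 to 18 nt with the seed CCUGCC and a score of 5.1, a score that ArgTCG fragments share. The most abundant of them, shown here, had 1.93, 4.81, 1.17 and 7.51 CPM in Rubicon+/- replicates 1 to 4 and 2.54, 3.52, 15.9 and 120 CPM in Rubicon-/- replicates 1 to 4.
SerAGA, 17 nt: tCCTGCCgactacgcca
The groups overlapped, and Rubicon-/- replicate 4 stood apart: the mean of 19.6 CPM was 5.34 CPM without it. Without that library the 16-nt and 18-nt forms averaged 0.914 and 0.538 CPM, under the limit of 1 CPM. The highest scores were 92.0 for an IleTAT fragment, 90.8 for a MetCAT fragment and 90.7 for a GlyCCC fragment, all with a mean under 2 CPM. The IleTAT fragment had 7.72 CPM in Rubicon+/- replicate 1 and at most 1.502 CPM elsewhere. The score of all members ran from 4.4 to 96.9.

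Single-base differences were frequent at 1 letter of the T loop. Positions are counted from 1 at the 5′ end of the read. The 22-nt HisGTG end had 118 CPM, and sequences that differ from it only by A4T, A4G and A4C had 34.9, 13.0 and 2.09 CPM, while no other 1-base partner passed 0.374 CPM. A4T and A4G lie in the seed and change it from CGAAUC, score 74.4, to CGUAUC, score 71.5, and to CGGAUC, score 33.9. Over the 33 CCA-ended sequences that begin with TCGA, 26.0% ± 1.65 (SD, n = 8) of reads had another letter at position 4, with a range of 23.7% to 28.6%, and at the other A positions of the same reads 0.188% ± 0.162 had.
HisGTG with A4T: tcgTatccgagtcacggcacca
HisGTG with A4G: tcgGatccgagtcacggcacca
In these 2 sequences the capital marks the changed letter. The same letter of the T loop is the last one of the 23-nt AsnGTT sequence, and there A23T had 15.01 CPM while no other 1-base partner passed 0.833 CPM. Over the 61 reads that end in GTTCGA, 6.56% ± 2.73 had another last letter, which was T in nearly all cases, and 0.659% ± 0.234 differed at another A position. A second place was the first anticodon letter of IleAAT, counted as position 1 of the anticodon, where 9 sequences with A1G held 7.13 CPM and 8 sequences with A held 5.08 CPM. A1G was ahead in Rubicon+/- replicates 1, 2 and 3 and in Rubicon-/- replicates 1 and 4, and the other libraries had as much or more A. As background, the first anticodon adenosine of such tRNAs is deaminated to inosine, which is read as G, an adenosine of the T loop is methylated in many tRNAs, and reverse transcriptase often misreads it. No modification was measured here, and the cause of the differences was not tested.

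The mitochondrial fragments were scarce, with 104 CPM against 5447 CPM for the cytosolic ones, and made up 0.881% to 3.47% of tRNA fragment reads in a library. CCA ends held 68.4% of their reads. Of the 128 sequences, 109 lay exactly in the GENCODE sequence of the named gene, the CCA aside. The leading families were mt-Tv, the valine tRNA, with 21.98 CPM and mt-Tl1, a leucine tRNA, with 17.9 CPM. Within mt-Tl1, 70.0% of reads had a score under 40. The most abundant mt-Tv read is shown, and its letters before CCA lie at chrM:1079-1093 (GRCm38, plus strand), the last bases of the gene.
mt-Tv, score 86.5, 6.17 CPM: cAATGAAcactctgacca
The members named 14 of the 14 plus-strand mitochondrial tRNA genes and 0 of the 8 minus-strand genes. Yet 22 sequences with 11.6 CPM in all lay in the minus-strand tRNA sequences, and the table gave them other annotations. The mitochondrial set is therefore a set of plus-strand genes by annotation.

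No tRNA fragment and no tRNA family differed between Rubicon-/- and Rubicon+/- brains at an adjusted p under 0.05 in limma. Of the 2504 members, 97 averaged 10 CPM or more and were tested among 3299 sequences. Over all of these, 16 sequences or 0.485% passed, and 0 of the 97 members did. At an unadjusted p under 0.05, 4 members were higher and 0 lower in Rubicon-/-, while 1.12% of all tested sequences were higher and 4.18% lower. The median log2 difference was 0.26 over the tested members and -0.02 over all tested sequences. The member median was 0.15 without Rubicon-/- replicate 4, 0.41 without Rubicon+/- replicate 2, 0.42 without Rubicon-/- replicate 2 and 0.43 without Rubicon-/- replicate 1. edgeR and DESeq2 on recovered reads also called 0 members. At an unadjusted p under 0.05, 13 members were higher in edgeR, where 1.33% of all tested sequences were, and 19 in DESeq2, where 2.09% were, and no member was lower in either. The unadjusted count of members changed with the libraries. Without Rubicon-/- replicate 3 it was 1 higher and 0 lower (23 and 132 of all 3287 tested sequences). Without Rubicon-/- replicate 4 it was 1 higher and 1 lower (27 and 156 of 3283). It was 2 higher and 0 lower without Rubicon+/- replicate 1 (44 and 104 of 3280). Without Rubicon+/- replicate 3 it was 1 higher and 1 lower (43 and 147 of 3327). The most, 13 higher and 0 lower, came without Rubicon-/- replicate 2 (49 and 216 of 3334). Without Rubicon-/- replicates 1 and 2 together, 28 of 107 tested members were higher at an unadjusted p under 0.05 and 0 lower, against 2.17% of all tested sequences higher and 5.88% lower. The member median was then 0.76 and that of all tested sequences 0.02, and 0 members passed the adjusted threshold.

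The member with the smallest p was a 22-nt MetCAT end. It had 5.79, 15.1, 14.4 and 14.6 CPM in Rubicon+/- replicates 1 to 4 and 24.6, 17.98, 39.96 and 36.3 CPM in Rubicon-/- replicates 1 to 4.
MetCAT, 22 nt: tCGAAACcatcctctgctacca
All 4 Rubicon-/- libraries were above all 4 Rubicon+/- libraries. This was so for 1 of the 97 tested members and for 0.788% of all tested sequences, and the reverse for 0 members and 2.21% of all. The log2 difference was 1.20 with an SE of 0.43 and an adjusted p of 0.683 in limma. The AlaCGC end with an added T had a log2 difference of 0.99 (SE 0.41, adjusted p = 0.879 in limma) and the 19-nt SerGCT end 1.77 (SE 0.81, adjusted p = 0.931 in limma). The smallest p-values in the other direction belonged to the AsnGTT sequence with A23T, at -0.997 (SE 0.58), a GluCTC end at -1.36 (SE 0.87) and a 5′ GluTTC piece at -0.60 (SE 0.40), all with an adjusted p of 0.973 in limma. Single libraries weighed on these values. Without Rubicon+/- replicate 1 the SerGCT end had 0.94 and the AsnGTT sequence -0.58. The GluCTC end had -0.68 without Rubicon-/- replicate 1 and -0.35 without Rubicon-/- replicates 1 and 2, and it fell under the 10 CPM filter without Rubicon+/- replicate 1 or Rubicon-/- replicate 4, while the GluTTC piece had -0.34 without Rubicon+/- replicate 2. For these 5 sequences the genotypes overlapped.

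By family, 22 tRNA groups were tested among 492 annotation groups. Of all groups 1.02% passed, and 0 of the tRNA groups did. At an unadjusted p under 0.05 there were 0 tRNA groups, while 0.407% of all groups were higher and 6.71% lower in Rubicon-/-. edgeR and DESeq2 called 0 tRNA groups as well, with 2 higher in each at an unadjusted p under 0.05, against 1.63% of all groups higher in edgeR and 2.24% in DESeq2. The smallest p was that of mt-Tl1, with a log2 difference of -1.07 (SE 0.58, adjusted p = 0.754 in limma). It stood at 32.8, 28.2, 24.8 and 9.38 CPM in Rubicon+/- and at 5.60, 13.1, 24.1 and 4.90 CPM in Rubicon-/- replicates 1 to 4, with overlap. tRNA-Leu had 0.79 (SE 0.51) and tRNA-Ala 0.78 (SE 0.53), both with an adjusted p of 0.821 in limma. Without Rubicon-/- replicate 4 these were 0.18 and 0.24, and without Rubicon-/- replicate 2 they were 1.15 and 1.28. edgeR gave 1.48 and 1.40, with adjusted p-values of 0.604 and 0.617. Without Rubicon-/- replicates 1 and 2, which left 2 Rubicon-/- libraries, tRNA-Ala had 1.88 with an adjusted p of 0.0159 in limma and tRNA-Leu had 1.78 with an adjusted p of 0.0672 in limma. tRNA-Asp at -0.54, tRNA-Lys at -0.35 and tRNA-His at 0.27 completed the 6 groups named by rule. Leaving out 1 library gave -0.996 (without Rubicon-/- replicate 4) to -0.20 (without Rubicon-/- replicate 1) for tRNA-Asp. It gave -0.63 (without Rubicon-/- replicate 4) to -0.21 (without Rubicon+/- replicate 1) for tRNA-Lys, and 0.06 (without Rubicon+/- replicate 4) to 0.36 (without Rubicon+/- replicate 1) for tRNA-His.

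The seed viability of the tRNA fragments did not separate the genotypes either. The mean score was 59.2, 60.2, 62.0 and 60.4 in Rubicon+/- replicates 1 to 4 and 60.8, 61.7, 60.5 and 59.3 in Rubicon-/- replicates 1 to 4. The group means were 60.5 ± 1.16 and 60.6 ± 0.987 (SD, n = 4). The share of reads with a score under 40 was 19.2%, 18.4%, 15.6% and 17.4% in Rubicon+/- and 16.4%, 15.1%, 17.9% and 22.2% in Rubicon-/- replicates 1 to 4. Its means were 17.7% ± 1.55 and 17.9% ± 3.08, and the lowest and the highest library were again both Rubicon-/-. In amount, such reads stood at 618 to 946 CPM in Rubicon+/- libraries and at 662, 570, 1252 and 2415 CPM in Rubicon-/- replicates 1 to 4.

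The number of distinct tRNA fragments followed depth. It ran from 498 in Rubicon+/- replicate 1, the shallowest library, to 2175 in Rubicon-/- replicate 2, the deepest. The number expected when each library is brought to the depth of the shallowest was 498 to 710 in Rubicon+/- and 685 to 825 in Rubicon-/- libraries, with overlap. Only 180 members were seen in all 8 libraries, and 291 were seen in 1. The lowest total of any sequence was 8 reads, and 268 members had exactly that number. Rare reads were removed before deposit, and the deepest libraries, both Rubicon-/-, weigh most in a total over libraries. The numbers brought to the same depth therefore do not compare the genotypes.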

How the data were processed

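Small RNAs pulled down with a GW182 peptide were sequenced from 8 brains, and the groups and replicate numbers came from the sample titles. The authors trimmed the reads (Trim Galore is named in the submitters' processing notes, with no version), compiled them with their SPOROS pipeline, removed rare reads and annotated each sequence by BLAST. The genome build behind the tRNA annotation was not given in the sources used here. The authors deposited CPM, in which every library is scaled to 1000000 reads, so each value depends on the rest of its library. The deposited viability score is the authors' mean over 3 mouse cell lines. A deposited total column was not used. The labels give 250 mg of tissue per sample. The replicates are separate mice.

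Dividing each CPM by what 1 read is worth gave whole reads, within 0.0006 CPM, for at least 99.9958% of values in each library, and hence the depth. Molecular identifiers were not used, and intervals and floors (3 reads, 0.151 to 5.79 CPM by library) cover counting error only. A CCA end was a member of at least 15 nt ending in CCA that no more abundant CCA-ended member extends, and bases after it were called added. Matching used exact letters, and GENCODE M21 (GRCm38) gave the mitochondrial genes. Nuclear tRNA sequences were not used here, so the place of a nuclear fragment was read from its letters.

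Over the whole table, sequences and annotation groups averaging 10 CPM or more were tested in R 4.3.3 on log2(CPM + 1) by limma 3.58.1, with a robust eBayes trend, all 8 libraries, no covariate, Benjamini-Hochberg adjustment and a threshold of 0.05. A fold on this scale understates the change of low sequences. edgeR 4.0.16 (quasi-likelihood, TMM) and DESeq2 1.42.0 were run on recovered reads as alternatives only. The limma fit was tested on simulated counts drawn with the real means and depths and with 1 fixed spread for all features. That spread was not estimated from these libraries, so the recovered share does not give the power for tRNA fragments. With 3299 sequences of which 200 changed 4-fold it recovered 97% with 3.48% false among its calls, and with 492 groups of which 123 changed it recovered 100% with 3.91% false. Classes were compared within libraries by exact sign-flip permutation tests over 256 sign patterns. Python 3.11.15, pandas 2.3.3, NumPy 2.4.6 and SciPy 1.17.1 were used.

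The members, lists and tests were chosen with earlier results of these data known. The named sequences were the 10 with the highest mean CPM, the 3 lowest and 3 highest scores at a mean of at least 1 CPM (ties by letters), and for the genotypes those past the threshold or, with fewer than 3 in a direction, the 3 smallest p-values there. Families were the 6 with the highest mean CPM and the same rule for the genotypes. The sets, ends and pairs shown beside these were chosen after their values were seen, as were the 4 contrasts within tRNA fragments and the alternatives without mitochondrial fragments and the levels without Rubicon-/- replicate 4. The other alternatives took pseudocounts of 0.1 or 10 CPM, a filter at 1 CPM or no filter, median centring, a replicate block, the count tools, leaving out libraries, only lengths of 18 to 24 nt, each sequence counted once, without the most abundant fragment and a threshold of 50.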

Additional observations from a re-analysis of the deposited data

Results flagged for a closer look

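Libraries far from the other 3 of their genotype were sought by the gap to the nearest one as a part of the range (Dixon's 95% critical value). Of 56 sets of 4 libraries tested, 7 met this, where chance gives about 2.8. Several of the 7 are of the same family, so they are not independent.

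The median viability score of tRNA fragment reads was highest in Rubicon+/- replicate 3, at 68.9 against 67.0 for the nearest. It was lowest in Rubicon-/- replicate 4, at 65.9 against 67.0. Among the Rubicon-/- libraries the share of CCA ends with added bases was lowest in replicate 2, the deepest library, at 47.8% against 51.3%. In Rubicon+/- replicates 1 and 3 this share was lower still, at 44.4% and 46.6%.

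The HisGTG sequence tCGAATCcgagtcacggcacca was lowest in Rubicon+/- replicate 4, at 43.9 CPM against 127 CPM in the nearest. In Rubicon-/- replicate 4 the LeuAAG end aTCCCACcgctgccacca was highest at 522 CPM against 83.8 CPM. The same end with an added T, aTCCCACcgctgccaccat, had 310 CPM there against 62.3 CPM, and with an added A, aTCCCACcgctgccaccaa, it had 345 CPM against 68.7 CPM. That library also had the shortest mean length of tRNA fragments, 19.4 nt, and the highest share of CCA ends, 70.8%. Whether the LeuAAG excess came from the tissue or from library preparation was not tested.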

How the results depend on the processing

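Of 144 alternatives to the class contrasts, 137 kept their direction and side of the threshold. With each distinct sequence counted once, the toxic share of tRNA fragments minus that of miRNAs turned to -1.85 percentage points and minus that of rRNA fragments to -0.32, and the mean length minus that of mRNA fragments was 0.54 nt and passed the threshold. With only 18 to 24 nt, the toxic share minus that of rRNA fragments was -0.53 and the length minus that of mRNA fragments -0.22 nt. Without the most abundant tRNA fragment the toxic share minus that of rRNA fragments was 3.36 and passed. Leaving out each library gave 1.49 to 3.48 for it and passed only without Rubicon-/- replicate 3. The 32 alternatives within tRNA fragments changed no call. The cause of these changes was not tested.

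Between genotypes, the share of tRNA fragments differed by 0.176 percentage points, by 0.0276 to 0.265 leaving out each library, and by 0.429 without the 2 libraries over 5000000 reads. The fits called 0 members under all 17 alternatives and 0 families under 16 of 17. Without the 2 deep libraries they called 1 of 24 families, tRNA-Ala, and 5 of 498 groups over the whole table. In that fit tRNA-Asp turned to 0.23 and tRNA-Lys to 0.0133 (log2). With the replicate block 0 members and 0 families passed, while over the whole table the count went from 16 to 26 sequences and from 5 to 10 groups. Over the whole table DESeq2 called 27 sequences and 9 groups, and a filter at 1 CPM or none 35 or 45 sequences. Same-numbered libraries had correlations of deviations from -0.13 to 0.15, and so few values cannot decide whether the numbers pair them. Median centring moved the median of all groups from -0.08 to 0.11 (log2) and that of the tRNA groups from 0.18 to 0.37. 1 read was worth 0.0502 to 1.93 CPM, so in the shallowest library a member under 5.79 CPM rested on fewer than 3 reads.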
